A study of Mus musculus with 2 samples.

Results

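The genes described here were 9 members of the fibroblast growth factor (FGF) pathway in the embryonic mouse mandible. They comprised the receptor genes Fgfr1, Fgfr2 and Fgfr3, the feedback inhibitors Spry1, Spry2, Spry4 and Dusp6, and the ETS transcription factors Etv4 and Etv5. They were taken by symbol from 27998 genes listed in the E12.0 matrix and 31053 in the E9.5 matrix, and all 9 were listed in both. FGF ligands bind receptor tyrosine kinases at the cell surface together with heparan sulphate and activate the RAS-ERK cascade. ERK signalling raises transcription of Etv4 and Etv5 and of inhibitors that act back on the cascade, so transcripts of these 6 response genes are widely used as a readout of FGF activity. In the mandible, epithelial FGF8 and FGF9 act on the neighbouring mesenchyme, and mesenchymal FGF10 acts on epithelium through the FGFR2 isoform IIIb during tooth and salivary gland budding.

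Each stage was measured in 1 library. The E12.0 library held mandibular arch epithelium from 6 embryos of 1 litter, pooled, with the genotype K14Cre;R26mT/mG, and the E9.5 library held epithelial and mesenchymal cells of mandibular arches pooled from 8 embryos, labelled with the same genotype. In this genotype a Cre recombinase driven by the keratin 14 promoter switches a reporter from membrane tdTomato to membrane GFP, and GFP+ cells were sorted at E12.0 only, so epithelial cells without recombination are missing from that library. The labels name no treatment at either stage. With 1 library of pooled embryos per stage there was no replicate, no difference was tested, and every interval below is an exact 95% interval that covers counting error only. Fewer cells of a type and less RNA per cell could not be told apart in summed counts.

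After cells outside 200 to 5500 genes or above 10% mitochondrial counts were left out, 11355 of 11663 cells remained at E12.0, with a median of 6349 unique molecular identifiers (UMIs, each counting 1 captured transcript), and 12744 of 14293 at E9.5, with a median of 13460.5. The libraries shared 51 barcodes. At E12.0 the 9 epithelial markers summed to 2626 counts per 1000000 UMIs (CPM) and the 7 mesenchymal markers to 9.74 CPM, and none of the 7 haemoglobin genes had a UMI. At E9.5 the 5 mesenchymal markers that set no gate (Pdgfra, Col1a1, Col1a2, Col3a1 and Lum) summed to 162 CPM in Twist1/Prrx1-positive and 36.1 CPM in Epcam-positive cells, and the 8 epithelial markers other than Epcam to 84.7 and 1351 CPM. Doublets were called for 5.82% of E12.0 and 2.60% of E9.5 cells.

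To follow the members across the E12.0 epithelium, cells were gated by UMIs of zone markers that include no member. The anterior gate, on Cxcl14 and Tfap2b, took 4224 cells and was split into ventral (1072), anterior dorsal (374) and other anterior (2778) cells. The dental gate, on dental markers that included Irx1 and Irx2, took 1159 cells and was split by Isl1 and Tlx1 into dental medial (565) and dental lateral (594) cells. Smaller gates held 203 cells of the initiation knot, an early tooth signalling centre (Shh, Gad1, Sp5 and Proser2), 703 posterior (Dmrt2, Rtl3, Col14a1 and Rprm), 292 salivary (Hpgd, Hpca and Col9a1), 80 tongue (Foxa2 alone) and 345 periderm/suprabasal cells (Grhl3, Pkp1, Nebl, Ppl and Zfp750). The periderm/suprabasal, tongue, salivary and initiation knot gates were filled first, in that order, and kept cells that also met other rules. Of the remaining cells, those that met more than 1 of the anterior, dental and posterior rules (126, 70 and 53) formed boundary groups of their own. Called doublets reached 79.2% among these groups. No gate took 4100 cells. Listed markers that set no gate were higher in the gate of their name than over all cells: Sox9 in salivary cells (407 against 54.4 CPM), Dkk4 and Fgf20 summed in the initiation knot (89.7 against 3.85 CPM), Fst and Enc1 in dental cells (260 against 89.9 CPM), Ccn4 and Sox2 in posterior cells (282 against 82.2 CPM) and Foxa1 in tongue cells (88.3 against 7.04 CPM). Called doublets were 2.19 to 14.7% of the cells of the 10 gates, and 8.22% in the salivary gate. A member was counted as higher or lower where its CPM differed by at least 1.3-fold with 5 CPM added on both sides and at least 15% of cells in the higher group had a UMI, and these size criteria were also run over every gene with a UMI in at least 5% of cells of either group.

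The receptor genes peaked in different gates. Fgfr2, the receptor for mesenchymal FGF7 and FGF10 in its epithelial isoform, was highest in the anterior epithelium, at 465 CPM (450.2 to 480.4) in the ventral, 413 CPM (404 to 422) in the other anterior and 345 CPM (325 to 366) in the anterior dorsal gate. It then stood at 215 CPM (202 to 228) in the posterior and 203 CPM (169.8 to 242) in the tongue gate. The 5 lowest gates lay close together, with 165 CPM in dental lateral, 154 in periderm/suprabasal, 153 in dental medial, 145 in initiation knot and 140.1 CPM in salivary cells. The 3 anterior gates were separated from each other and from every other gate by their intervals, while neighbours from posterior downwards overlapped. A 3′ count does not tell the IIIb and IIIc isoforms apart.

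Fgfr1, whose product is best known as a mesenchymal receptor, peaked elsewhere. It was highest in the salivary gate, at 174 CPM (159 to 191), followed by 116 CPM (107 to 126) in the posterior and 90.3 CPM (76.6 to 106) in the initiation knot gate. The tongue gate had 74.1 CPM (54.4 to 98.5), the dental gates 61.0 (lateral) and 57.9 CPM (medial), the 3 anterior gates 45.6 to 49.4 CPM and the periderm/suprabasal gate 41.6 CPM (34.1 to 50.3). The salivary and posterior values stood apart from all lower gates and from each other, and every pair of neighbours from the initiation knot downwards overlapped. Fgfr3 was the sparsest receptor and had a different pattern, with 54.1 CPM (45.5 to 63.9) in the periderm/suprabasal and 39.4 CPM (25.5 to 58.2) in the tongue gate. It stood at 18.1 to 25.2 CPM in the anterior gates and at 5.34 to 8.74 CPM in the dental, initiation knot, posterior and salivary gates. A UMI of Fgfr3 was found in 30.1% (25.4 to 35.3%) of periderm/suprabasal cells and in 4.11% (2.14 to 7.07%) of salivary cells.

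**Figure D1:**
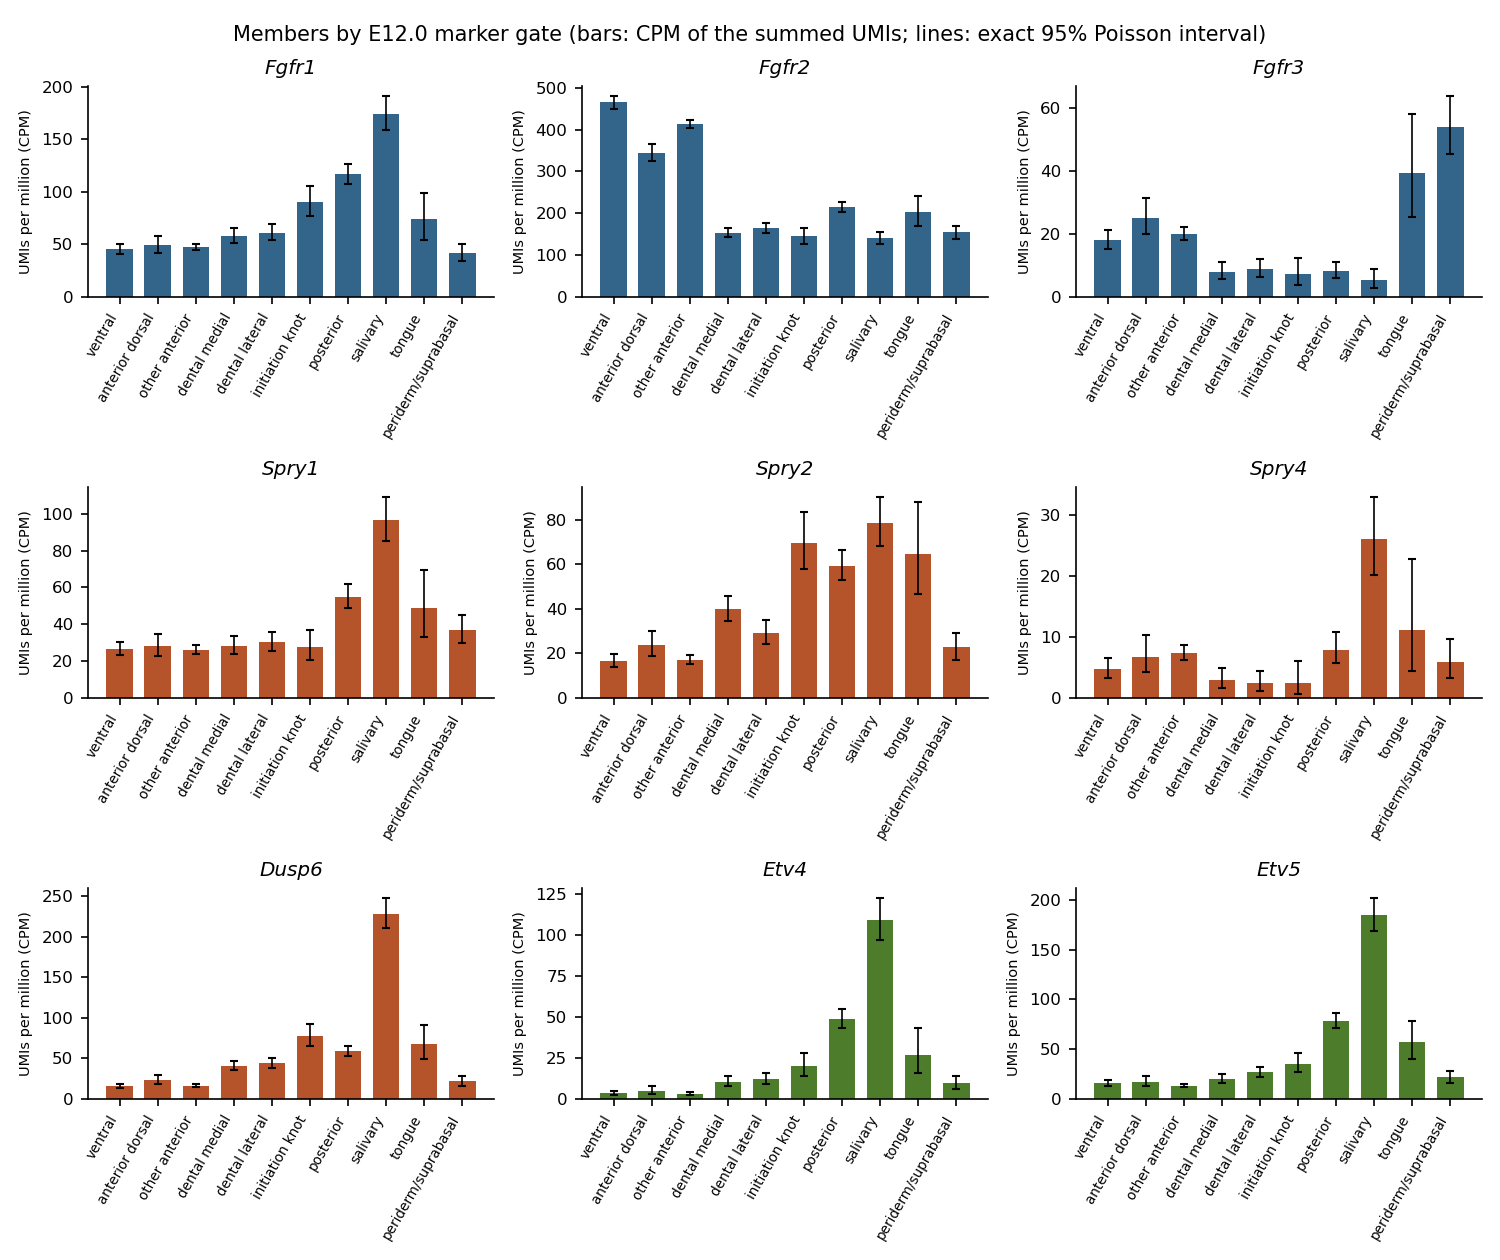
CPM of each member (vertical axis) in the 10 E12.0 marker gates (horizontal axis), with receptors in blue, feedback inhibitors in orange and ETS factors in green; lines are exact 95% Poisson intervals. The 6 response genes and Fgfr1 have their tallest bar in the salivary gate, where Fgfr2 has its lowest, at 140.1 CPM.

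The feedback inhibitors were highest in the salivary gate. Dusp6, a cytoplasmic phosphatase that inactivates ERK, reached 229 CPM (211 to 248) there. The next gates were initiation knot, at 77.3 CPM (64.6 to 91.7), tongue, at 67.8 CPM (49.1 to 91.3), and posterior, at 58.5 CPM (52.1 to 65.5), which overlapped. Dental lateral and dental medial cells followed at 43.7 and 40.8 CPM, and anterior dorsal, periderm/suprabasal, other anterior and ventral cells were lowest, at 23.2, 21.4, 16.3 and 15.7 CPM. The salivary interval lay above all others, and the dental pair lay above the 4 lowest gates and below the initiation knot and posterior gates, while dental lateral and tongue cells overlapped.

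Among the Sprouty genes, whose proteins block RAS-ERK signalling downstream of receptor tyrosine kinases, Spry1 stood at 96.5 CPM (85.0 to 109) in the salivary gate and 54.9 CPM (48.7 to 61.6) in the posterior gate. It was 48.9 CPM (33.2 to 69.4) in tongue and 37.0 CPM (29.9 to 45.2) in periderm/suprabasal cells and lay between 26.1 and 30.2 CPM in the 6 remaining gates. Spry2 was spread more widely: the salivary (78.6 CPM), initiation knot (69.6), and tongue (64.6 CPM) gates overlapped, as did initiation knot, tongue and posterior (59.3 CPM), while the salivary interval lay above the posterior one. The dental medial cells had 39.7 CPM (34.3 to 45.8) and ventral cells 16.7 CPM (14.0 to 19.8). The initiation knot was high for Spry2 and low for Spry1, at 27.7 CPM. Spry4 was rare, at 25.9 CPM (20.1 to 32.9) in the salivary gate and 2.36 to 11.0 CPM in the others, where the initiation knot value, also 2.36 CPM, rested on 4 UMIs.

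The ETS factors, which carry the ERK signal to target genes, were also highest in the salivary gate, and Etv4 had the widest range of the 9 members. It stood at 109 CPM (96.9 to 123) in salivary and 48.7 CPM (42.9 to 55.1) in posterior cells, at 26.8 in tongue and 20.1 CPM in initiation knot cells. Its dental values were 12.1 (lateral) and 10.4 CPM (medial), its periderm/suprabasal value 9.34 CPM, and its anterior values 3.05 to 4.78 CPM. Etv5 followed the same order from the top, at 185 CPM (169 to 202) in salivary, 78.6 CPM (71.1 to 86.6) in posterior, 56.8 CPM (39.8 to 78.6) in tongue and 35.4 CPM (27.0 to 45.6) in initiation knot cells. The dental lateral, periderm/suprabasal, dental medial, anterior dorsal, ventral and other anterior gates had 26.7, 21.4, 20.1, 17.2, 15.9 and 13.3 CPM. For both genes the salivary interval lay above the posterior one, and the posterior one above all remaining gates except tongue.

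The promoters of members that peaked together are shown beside that of Fgfr2, which was lowest in the gate where they were highest, because ETS factors such as ETV4 and ETV5 bind a GGAA core. RefSeq windows (GRCm38.p6) were used for 6 of the 9 members, namely Fgfr2, Fgfr3, Spry1, Spry2, Dusp6 and Etv5, with 8 windows in all. Member windows on a chromosome that was left out were not used, while the count over all windows kept that chromosome. Each sequence is the 250 bases before the annotated start, 5′ to 3′ on the gene's strand. Capitals mark GGAA or its reverse complement TTCC. Dusp6 lies at chr10:99262981-99263230 on the + strand, Spry1 at chr3:37639697-37639946 on the + strand, the downstream start of Etv5 at chr16:22438369-22438618 on the − strand and Fgfr2 at chr7:130266809-130267058 on the − strand.
Dusp6: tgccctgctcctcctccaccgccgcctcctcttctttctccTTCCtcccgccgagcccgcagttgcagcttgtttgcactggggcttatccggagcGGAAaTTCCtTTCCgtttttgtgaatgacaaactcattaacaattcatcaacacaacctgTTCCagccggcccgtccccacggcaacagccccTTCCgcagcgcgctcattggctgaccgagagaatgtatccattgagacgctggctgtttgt
Spry1: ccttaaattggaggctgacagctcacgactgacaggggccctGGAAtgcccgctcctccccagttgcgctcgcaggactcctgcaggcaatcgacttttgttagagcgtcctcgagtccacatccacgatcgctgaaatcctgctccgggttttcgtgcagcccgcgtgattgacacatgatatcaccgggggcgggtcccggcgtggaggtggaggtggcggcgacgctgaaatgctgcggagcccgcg
Etv5: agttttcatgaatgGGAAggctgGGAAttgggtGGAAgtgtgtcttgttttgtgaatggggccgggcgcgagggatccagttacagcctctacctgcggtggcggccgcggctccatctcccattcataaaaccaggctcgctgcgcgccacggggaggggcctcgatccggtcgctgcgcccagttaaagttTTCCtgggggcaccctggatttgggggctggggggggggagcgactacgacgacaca
Fgfr2: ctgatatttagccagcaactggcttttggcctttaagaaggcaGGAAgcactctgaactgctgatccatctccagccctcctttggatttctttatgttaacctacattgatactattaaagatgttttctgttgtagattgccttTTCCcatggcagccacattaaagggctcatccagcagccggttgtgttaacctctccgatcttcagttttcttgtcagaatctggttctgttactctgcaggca

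These windows held 6 matches to GGAA on either strand in Dusp6, 1 in Spry1, 4 at this start of Etv5 (none at the upstream start) and 2 in Fgfr2. Of the windows not shown, that of Spry2 held 3 and those of Fgfr3 held 1 and 5. Fgfr3, like Fgfr2, had its lowest value in the salivary gate. A match stood in 93.4% of all 32851 windows of this length, with a median of 3 per window, so its presence does not set the members apart. The longer form CCGGAA, searched on both strands and containing the core, was in 0 of the 8 member windows and in 12.0% of all windows. The GC content was 56.4% for Dusp6, 62.4% for Spry1, 62.0% for Etv5 and 44.0% for Fgfr2.

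Against all other kept E12.0 cells, the salivary gate had 7 of the 9 members higher, that is Fgfr1 and all 6 response genes, where 7.2% of all genes were higher, and 1, Fgfr2, lower, where 7.43% of all genes were lower. The largest log2 ratios were those of Etv4, at 3.01 (2.81 to 3.20), Dusp6, at 2.77 (2.64 to 2.90), and Etv5, at 2.60 (2.46 to 2.75). Spry4 was at 1.96 (1.58 to 2.33), Spry1 at 1.53 (1.33 to 1.71), Fgfr1 at 1.44 (1.29 to 1.57) and Spry2 at 1.24 (1.03 to 1.45), and Fgfr2 at -1.08 (-1.23 to -0.93). The median log2 ratio with 5 CPM added was 1.40 over the 9 members and 0.01 over all genes. All 8 differed by at least 2-fold with 5 CPM added, and 8 members also met the criteria without called doublets and against cells of the other gates only. The share of all genes under these other settings is not given.

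The posterior gate had 6 members higher (Fgfr1, Spry1, Spry2, Dusp6, Etv4 and Etv5), beside 3.73% of all genes, and 1 lower (Fgfr2), beside 2.83%. Etv4 led with a log2 ratio of 1.75 (1.54 to 1.95), followed by Etv5 at 1.27 (1.12 to 1.43). The tongue gate had 6 higher (Fgfr3, Spry1, Spry2, Dusp6, Etv4 and Etv5), beside 7.62%, and 1 lower (Fgfr2), beside 7.99%. Of these, the intervals for Spry1, at 0.46 (-0.10 to 0.97), and Etv4, at 0.68 (-0.10 to 1.37), included 0. When cells were thinned to equal depth, Etv4 in the tongue gate turned to -0.04 with 5 CPM added.

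The initiation knot gate had 3 members higher (Fgfr1, Spry2 and Dusp6), beside 7.64% of all genes, and 1 lower (Fgfr2), beside 6.97%. Its log2 ratio was 0.42 (0.17 to 0.65) for Fgfr1, 1.03 (0.75 to 1.3) for Spry2 and 0.98 (0.72 to 1.24) for Dusp6, but 0.26 (-0.27 to 0.75) for Etv4 and -0.01 (-0.40 to 0.36) for Etv5. In cells with a Y-linked UMI and none of Xist, Fgfr1 in this gate turned to -0.03 with 5 CPM added. The dental gate had 0 members higher, beside 2.92%, and 2 lower (Fgfr2 and Etv5), beside 3.76%. Dusp6 and Spry2 in dental cells were within 1.3-fold of the remaining cells, at 0.09 (-0.07 to 0.24) and -0.01 (-0.18 to 0.17).

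The anterior gate had 1 member higher (Fgfr2), beside 3.38% of all genes, and 5 lower (Fgfr1, Spry1, Spry2, Dusp6 and Etv5), beside 3.29%. The log2 ratio was 0.99 (0.95 to 1.03) for Fgfr2, -1.68 (-1.82 to -1.54) for Dusp6 and -1.75 (-1.91 to -1.60) for Etv5. Etv4 had the lowest ratio, at -2.93 (-3.24 to -2.63), but did not meet the criteria because only 12.8% of the other cells had an Etv4 UMI. The periderm/suprabasal gate had 1 member higher (Fgfr3, at 1.83 (1.56 to 2.08)), beside 7.85%, and 5 lower (Fgfr1, Fgfr2, Spry2, Dusp6 and Etv5), beside 5.56%.

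The 6 response genes were also summed per gate and set against the receptors. The sum was 724 CPM (691 to 757) in the salivary gate, 308 CPM (293 to 323) in the posterior, 276 CPM (236 to 319.9) in the tongue and 232 CPM (210.1 to 257) in the initiation knot gate. It was 144 CPM (133 to 156) in dental lateral, 142 CPM (132 to 153) in dental medial and 118 CPM (105 to 132) in periderm/suprabasal cells, and 82.8 to 104 CPM in the anterior gates. The number of Fgfr2 UMIs per Fgfr1 UMI was 0.803 (0.698 to 0.923) in salivary, 1.60 (1.3 to 1.97) in initiation knot, 1.84 (1.67 to 2.04) in posterior, 2.65 (2.30 to 3.05) in dental medial and 10.2 (9.16 to 11.4) in ventral cells. UMI yields differ between genes, so this ratio was read only across gates. It was lowest in the gate with the highest response sum and above 6.99 in the 2 anterior gates with the lowest sums. Between these ends the ratio did not follow the sum throughout. The tongue gate, at 276 CPM, had a ratio of 2.745 (1.95 to 3.92), close to that of dental medial cells, at 142 CPM. The initiation knot had a lower ratio than the posterior gate and also a lower sum.

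**Figure D2:**
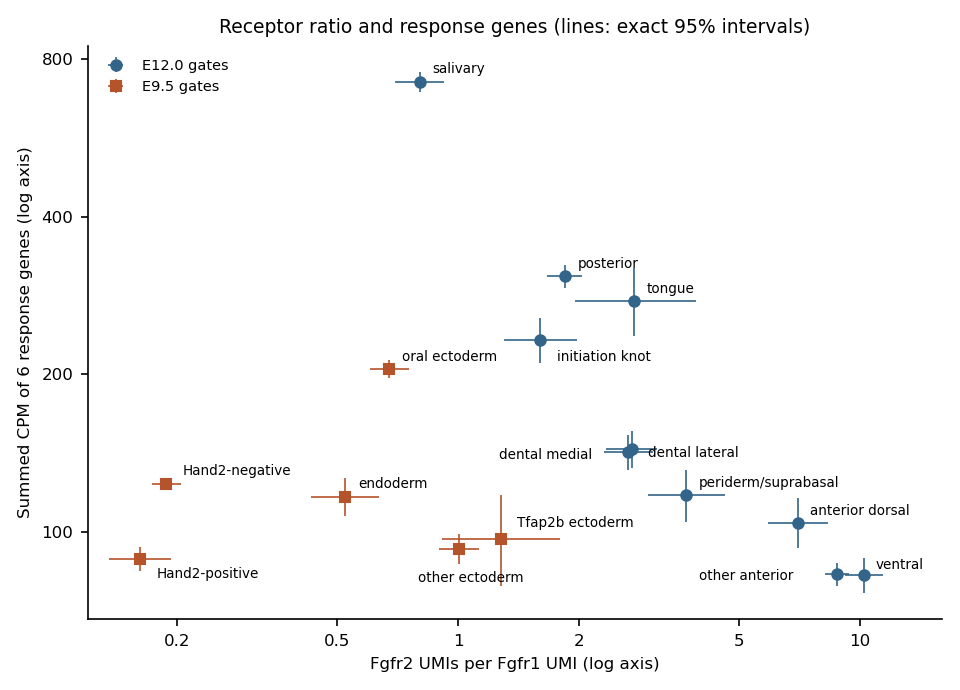
Summed CPM of the 6 response genes (vertical, log axis) against Fgfr2 UMIs per Fgfr1 UMI (horizontal, log axis) in 10 E12.0 gates (circles) and 6 E9.5 gates (squares); lines are exact 95% intervals. Among E12.0 gates the salivary gate is at the top left, at 724 CPM and a ratio of 0.803, and the ventral gate at the bottom right.

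Cell by cell, the response was sparser outside the salivary gate. In cells thinned to 4100 UMIs, 10.1% of 288 salivary cells had no UMI of any response gene, against 36.6% of posterior, 39.7% of initiation knot, 45.6% of tongue, 57.8% of dental lateral and 73.3% of ventral cells. At least 3 of the 6 genes were found together in 32.6% of salivary, 10.5% of posterior and 0.273% of other anterior cells. Without thinning, an Etv5 UMI was found in 72.6% (67.1 to 77.6%) of salivary cells and 7.81% (6.84 to 8.87%) of other anterior cells, at median depths of 8219.5 and 6262.5 UMIs, and with thinning in 50.4% and 4.67%. For Fgfr2 the unthinned shares were 94.0% (92.4 to 95.4%) of ventral and 66.1% (60.4 to 71.5%) of salivary cells, and the thinned shares 83.3% and 38.2%. The E12.0 library holds no cell type that should lack these genes. In the 65 haemoglobin-rich E9.5 cells, at a median of 15981 UMIs, an Etv5 UMI was found in 3.08% (0.375 to 10.7%) and an Fgfr2 UMI in 1.54% (0.0389 to 8.28%) of cells. These cells come from the other library, and 25 of them were also Twist1/Prrx1-positive.

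Other FGF pathway genes were read from 7 lists of 76 genes in all (ligands, other receptors and co-receptors, adaptors, MAPK core, other feedback genes, other ERK-responsive transcription factors and heparan sulphate genes). In the salivary gate 8 were higher and 8 lower among 56 with enough detection, beside 7.2% and 7.43% of all genes. Il17rd, a transmembrane inhibitor of FGF signalling, stood at 73.7 against 13.7 CPM, Etv1, another ETS factor of the same subfamily, at 25.2 against 8.17, and Flrt2, a transmembrane FGFR partner, at 482 against 79.0 CPM. The ligand genes Fgf9 (138 against 55.3 CPM) and Fgf1 (22.1 against 4.29 CPM) were also higher. Dusp7, Dusp9, Ets2, Fos and Junb were among the lower genes, so the ERK-linked genes did not move as 1 block. None of the 12 adaptor and 12 MAPK core genes passed the criteria in the salivary gate.

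In the initiation knot gate 12 pathway genes were higher and 9 lower among 56 with enough detection, beside 7.64% and 6.97% of all genes. The ligand genes Fgf17 (41.9 against 1.68 CPM), Fgf20 (25.4 against 0.197 CPM) and Fgf9 (162 against 55.8 CPM) were higher there, as was Flrt3 (284 against 47.0 CPM). The posterior gate had 6 higher and 4 lower among 54, beside 3.73% and 2.83%, with Il17rd at 29.9 against 14.7 CPM. The dental gate had 10 higher and 4 lower among 55, beside 2.92% and 3.76%. Fgf8 stood there at 67.3 against 19.3 CPM and Egr1, an immediate early gene, at 46.2 against 102 CPM. Among 55 in each, the anterior gate had 2 higher and 9 lower, beside 3.38% and 3.29%. The tongue gate had 4 and 9, beside 7.62% and 7.99%, and the periderm/suprabasal gate 6 and 8, beside 7.85% and 5.56%. Fgf10 had 0.0128 CPM (0.000325 to 0.0715) over all cells of this sorted epithelial library, from 1 UMI.

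Over the 10 gates the pattern of each member was compared with 9226 genes by Pearson's r of log2(CPM + 5), given as a description because the gates come from 1 library and the salivary gate weighs heavily in it. Etv4 was closest to Etv5 (r = 0.988), with Uaca (r = 0.969) also among its 3 closest genes, and Etv5 was closest to Etv4 (r = 0.988) and Itpr1 (r = 0.965). Dusp6 was closest to Uaca (r = 0.977), Polr2h (r = 0.972) and Galnt1 (r = 0.966), Spry1 to Sox9 (r = 0.992), Gnaq (r = 0.985) and Foxc1 (r = 0.985), Spry2 to Ddx52 (r = 0.964), Srp68 (r = 0.952) and Eri2 (r = 0.940), and Spry4 to Myb (r = 0.972), Morf4l1 (r = 0.967) and Foxp4 (r = 0.958). Fgfr1 was closest to Fam102b (r = 0.961), Etv4 (r = 0.955) and Il17rd (r = 0.955), Fgfr2 to Atxn10 (r = 0.978), Wnt7b (r = 0.959) and Ago4 (r = 0.957), and Fgfr3 to Vti1b (r = 0.970), Plekhh3 (r = 0.956) and Il17re (r = 0.954). Among the members themselves, Fgfr1 had r of 0.936 with Dusp6, 0.955 with Etv4 and 0.950 with Etv5, while Fgfr2 had r of -0.691, -0.634 and -0.531 with the same genes.

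Joint detection was counted in thinned E12.0 cells as the number of cells with UMIs of both genes over the number expected from the product of their shares. Its interval is exact for the joint share only, with the expected number taken as fixed. Over all 10331 thinned cells it was 2.97 (2.57 to 3.42) for Etv4 with Etv5, 2.27 (1.94 to 2.64) for Dusp6 with Etv4 and 1.87 (1.66 to 2.10) for Dusp6 with Etv5. Within the salivary gate the same pairs were at 1.15 (0.896 to 1.44), 1.12 (0.873 to 1.41) and 1.08 (0.881 to 1.3), with all 3 intervals including 1. Fgfr1 and Fgfr2 were at 0.936 (0.891 to 0.983) over all cells. Counts of this kind are sparse, and within the dental gate the Etv4 and Etv5 value of 3.50 (1.92 to 5.85) rested on 14 cells.

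Because Fgf8 marks an epithelial FGF source, the members were next compared between E12.0 cells with at least 1 Fgf8 UMI and cells with none. There were 1363 cells with Fgf8, 12.0% of kept cells, with a median of 7096 UMIs against 6274. Of the 9 members 0 were higher, beside 1.51% of all genes, and 1 was lower, beside 1.53%. The lower one was Etv5, at 24.1 CPM in cells with Fgf8 and 37.4 CPM in cells without, a log2 ratio of -0.63 (-0.83 to -0.45). Etv4 was at 11.4 against 17.6 CPM, -0.62 (-0.91 to -0.35), but with a UMI in fewer than 15% of cells. Fgfr2 was at 232 against 299.8 CPM, and Dusp6 at 33.2 against 41.0 CPM. All 9 ratios were below 1, with a median of -0.26 over the members and 0.00 over all genes on the scale with 5 CPM added.

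The groups differed in zone. Dental cells were 26.8% of cells with Fgf8 and 7.95% of those without, and anterior cells 10.3% and 40.9%. Of the 292 salivary cells, where the response genes peaked, 6 had an Fgf8 UMI. Within dental lateral cells, where Fgf8 was highest at 101 CPM (91.8 to 111), 245 cells with Fgf8 and 349 without gave a log2 ratio of -0.05 (-0.49 to 0.38) for Dusp6, -0.44 (-1.03 to 0.13) for Etv5 and 0.54 (-0.31 to 1.40) for Etv4, and no member met the criteria. Within dental medial cells Dusp6 was at -0.65 (-1.24 to -0.10) and Etv5 at -0.47 (-1.3 to 0.28). Within posterior cells, with 57 carrying Fgf8, Dusp6 was at -1.58 (-2.65 to -0.68) and Etv5 at -0.76 (-1.44 to -0.16). Within other anterior cells, 97 carried Fgf8, at a median of 8614 UMIs against 6202 in those without. In this gate 7 of the 9 ratios were above 1. Fgfr1, at 67.2 against 46.1 CPM or 0.54 (0.14 to 0.92), and Dusp6, at 0.49 (-0.25 to 1.14), were higher by the criteria. Etv5 was at 0.36 (-0.50 to 1.11) there. The share of all genes past the criteria within single gates is not given. Within ungated cells, which held 50.3% of cells with Fgf8, Etv5 was at -1.01 (-1.31 to -0.71) and Etv4 at -1.05 (-1.52 to -0.62). The part of zone in the pooled ratios was not tested. Fgf9 was higher in cells with Fgf8, at 82.2 against 54.3 CPM. Of 55 pathway genes with enough detection 5 were higher, Fgf8 itself included, beside 1.51% of all genes. The lower ones were 4, among them Egr1 (43.1 against 104 CPM), beside 1.53%.

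At E9.5 the ratios of 5 response genes (Spry1, Spry4, Dusp6, Etv4 and Etv5) had the opposite sign, a difference between stages that was not tested, while Spry2 was below 1 in both libraries. Among 2418 Epcam-positive cells without Twist1 or Prrx1 UMIs, 896 had an Fgf8 UMI, at a median of 13857 UMIs against 9652. Dusp6 was at 88.9 CPM in cells with Fgf8 against 40.0 in cells without, a log2 ratio of 1.15 (1.01 to 1.3). Etv5 was at 27.7 against 10.4 CPM, 1.42 (1.14 to 1.70), Etv4 at 11.7 against 4.65 CPM, 1.32 (0.91 to 1.76), and Spry1 at 42.3 against 22.3 CPM, 0.92 (0.72 to 1.12). These 4 members were higher, beside 1.41% of all genes, and Fgfr2 was the 1 lower, at 41.0 against 56.6 CPM, beside 3.62%. Spry4 had the ratio 1.55 (1.02 to 2.09) but too few cells with a UMI, and Spry2 and Fgfr1 were within 1.3-fold, at 21.0 against 22.3 and 66.4 against 60.5 CPM. With cells thinned to 3100 UMIs, 2 members met the criteria, and the share of all genes in thinned cells is not given. The median log2 ratio with 5 CPM added was 0.76 over the members and -0.02 over all genes.

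Here too the groups differed in tissue. Oral ectoderm, gated on Vgll2 and without endoderm markers, made up 69.0% of cells with Fgf8 and 17.8% of those without. Within oral ectoderm the log2 ratio was 0.66 (0.44 to 0.88) for Dusp6, 0.87 (0.46 to 1.31) for Etv5, 0.79 (0.17 to 1.46) for Etv4 and 0.54 (0.24 to 0.86) for Spry1. Within the remaining ectoderm Dusp6 was at 1.26 (0.93 to 1.60) and Etv5 at 1.19 (0.53 to 1.82), and within endoderm at 0.42 (0.05 to 0.79) and 1.15 (0.38 to 1.92). Dusp6, Etv4, Etv5 and Spry1 were therefore above 0 in each of the 3 groups, with intervals that included 0 for Etv4 in the other ectoderm and endoderm. Spry4 was at 1.33 (0.52 to 2.26) in oral ectoderm and 0.73 (-0.66 to 1.97) in other ectoderm. In endoderm Spry4 was below 0, at -0.17 (-2.75 to 1.965). Spry2 was at -0.12 (-0.49 to 0.25), -0.13 (-0.70 to 0.40) and -1.35 (-2.29 to -0.51) in oral ectoderm, other ectoderm and endoderm. Of 54 pathway genes with enough detection 4 were higher in cells with Fgf8 and 3 (Frs2, Gab1 and Gpc3) lower, beside 1.41% and 3.62% of all genes. The higher ones were Il17rd (33.0 against 19.6 CPM), Etv1 (14.9 against 4.72 CPM), Fgf10 (15.3 against 5.25 CPM) and Fgf8 itself.

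**Figure D3:**
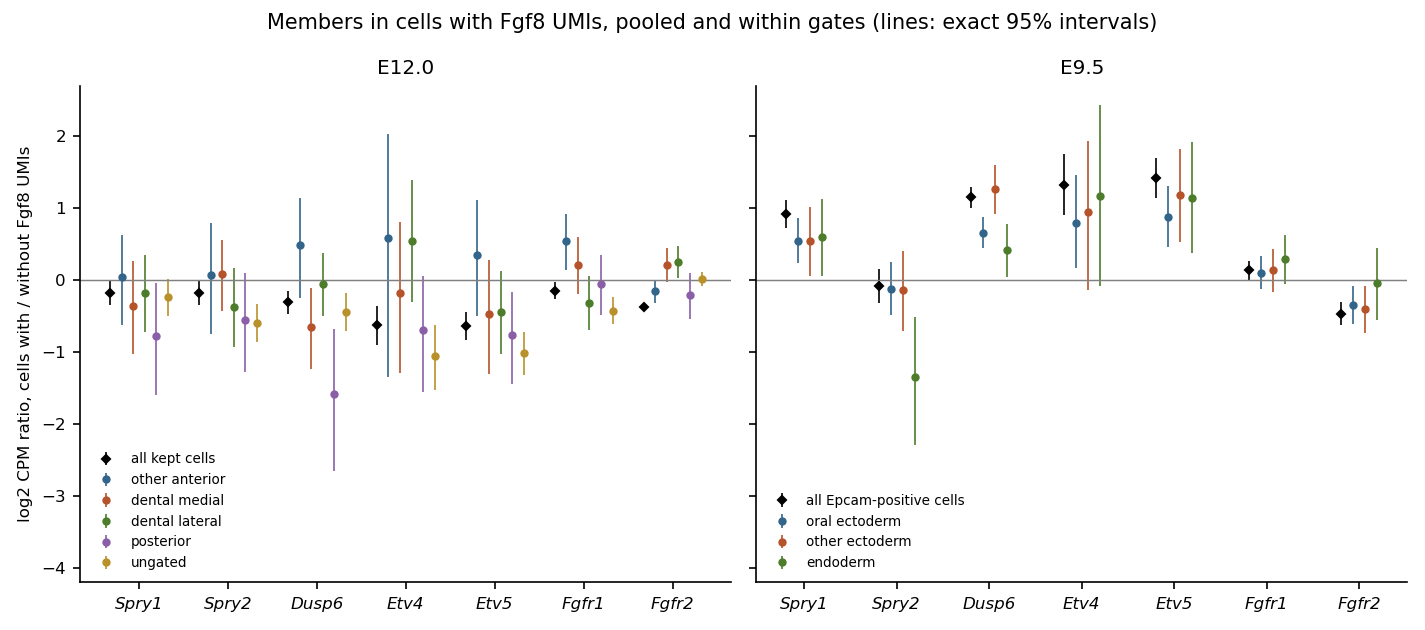
Log2 ratio of CPM in cells with against cells without Fgf8 UMIs (vertical axis) for 7 members (horizontal axis) at E12.0 (left) and E9.5 (right), pooled (black diamonds) and within gates (coloured circles); lines are exact 95% intervals. At E9.5 Dusp6, Etv4, Etv5 and Spry1 lie above 0 in every group shown, while at E12.0 the pooled values lie below 0 and gates fall on both sides.

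The members were also read along the number of Fgf8 UMIs per cell. At E9.5, in cells with 0, 1, 2 and at least 3 Fgf8 UMIs, Dusp6 stood at 40.0, 78.4, 73.7 and 98.6 CPM, Spry1 at 22.3, 30.1, 46.7 and 47.1 CPM, and Etv5 at 10.4, 24.6, 25.5 and 29.9 CPM. Most of the difference for Dusp6 and Etv5 lay between 0 and 1 UMI. At E12.0 Etv5 stood at 37.4, 24.7, 22.3 and 23.7 CPM, and Fgfr2 was lower at each step, from 299.8 through 243 and 214 to 195 CPM. Neighbouring Fgfr2 intervals overlapped from 1 UMI upwards. Within dental lateral cells Fgfr2 was higher with Fgf8, at 181 against 152 CPM, a log2 ratio of 0.25 (0.03 to 0.47). It was at 0.21 (-0.03 to 0.45) within dental medial and 0.01 (-0.08 to 0.11) within ungated cells. Within other anterior and posterior cells it was at -0.15 (-0.31 to 0.01) and -0.21 (-0.54 to 0.10).

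**Figure D4:**
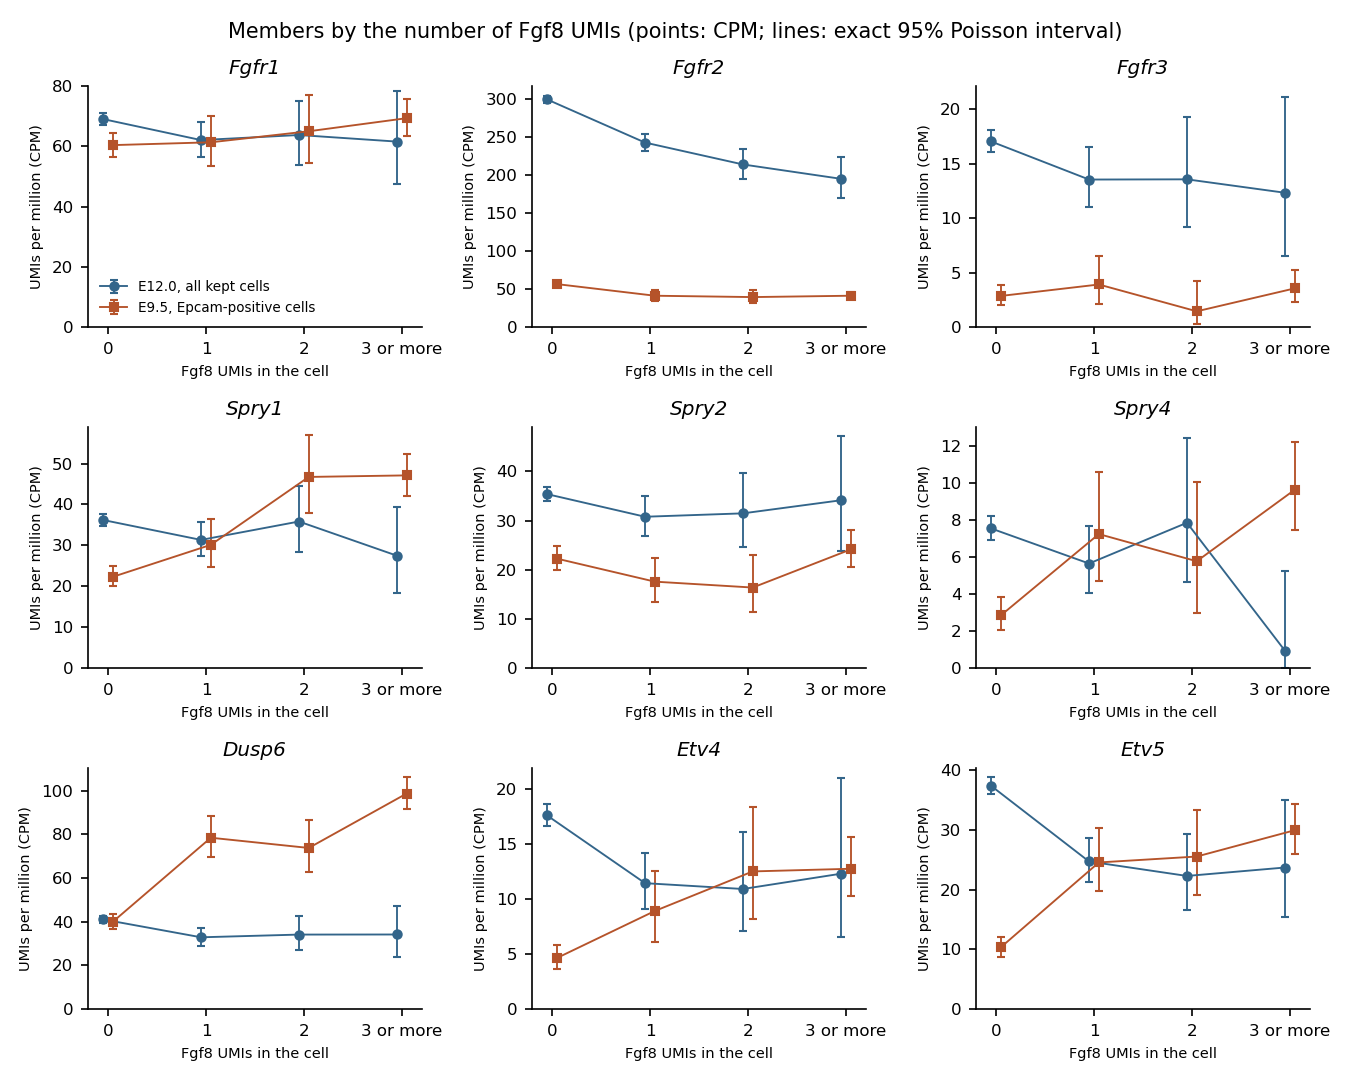
CPM of each member (vertical axis) in cells with 0, 1, 2 or at least 3 Fgf8 UMIs (horizontal axis), for all kept E12.0 cells (blue circles) and Epcam-positive E9.5 cells (orange squares); lines are exact 95% Poisson intervals. Dusp6 at E9.5 goes from 40.0 to 98.6 CPM, and at E12.0 from 41.0 to 34.1 CPM.

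At E9.5 the arch still held its mesenchyme, which allowed the members to be compared between 2418 Epcam-positive and 6596 Twist1/Prrx1-positive cells. This left out 2398 cells with UMIs of both, of which 9.01% were called doublets, and 1332 with neither. In all, 4816 kept cells had an Epcam UMI. Fgfr2 differed most, at 49.5 CPM (46.9 to 52.1) against 9.16 CPM (8.55 to 9.80), a log2 ratio of 2.43 (2.31 to 2.56). Spry1 was at 31.4 CPM (29.4 to 33.6) against 14.5 CPM (13.7 to 15.3), 1.12 (1.00 to 1.25), and Dusp6 at 62.4 CPM (59.5 to 65.4) against 46.4 CPM (45.0 to 47.8), 0.43 (0.35 to 0.51). These 3 were higher in epithelium, beside 15.3% of all genes. Spry4 alone among the members was lower in epithelium, at 5.37 CPM (4.54 to 6.30) against 13.8 CPM (13.0 to 14.5), beside 7.94% of all genes. Fgfr1, at 63.2 against 50.1 CPM, Spry2, at 21.7 against 18.2, Etv4, at 7.85 against 6.71, and Etv5, at 18.3 against 18.5 CPM, were within 1.3-fold, and Fgfr3 was rare in both, at 3.06 and 1.47 CPM. The median log2 ratio with 5 CPM added was 0.31 over the members and 0.09 over all genes. Of 54 pathway genes with enough detection 11 were higher in epithelium and 10 lower, beside 15.3% and 7.94% of all genes. The higher ones included 6 of the 11 heparan sulphate genes (Hs6st1, Hs6st2, Ext1, Ext2, Sdc4 and Gpc3), while 2 genes of that list, Gpc1 and Gpc4, were lower. The lower ones also included the phosphatase genes Dusp4 (10.7 against 29.5 CPM) and Dusp7 (18.4 against 36.8 CPM). Dusp6 lost its direction in the small set of cells without Top2a or Mki67 UMIs, at -0.44 with 5 CPM added.

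Within the E9.5 epithelium the response genes were highest in oral ectoderm (889 cells). Dusp6 stood there at 89.3 CPM (84.1 to 94.8), in endoderm (390 cells) at 53.6 CPM (47.3 to 60.4), in Tfap2b-positive ectoderm (91 cells) at 36.1 CPM (25.6 to 49.6) and in the other ectoderm (1048 cells) at 34.6 CPM (31.0 to 38.6). Etv5 was at 27.4 CPM (24.5 to 30.4) in oral ectoderm and at 12.6, 14.3 and 9.84 CPM in endoderm, Tfap2b-positive and other ectoderm. Spry1 was at 42.7 CPM (39.1 to 46.5) in oral ectoderm and 20.7 to 25.7 CPM in the other 3 tissues. All 6 response genes had their highest value of the 4 tissues in oral ectoderm, with Spry4 at 8.83 CPM (7.25 to 10.7) and Etv4 at 11.9 CPM (10.1 to 14.0). Spry2 differed less between oral and other ectoderm than Dusp6, Etv5 and Spry1 did. In cells with and without Fgf8 it was at 23.88 and 26.01 CPM in oral and 19.05 and 20.89 CPM in other ectoderm. Fgfr2 was instead higher outside the oral ectoderm within ectoderm, at 78.9 CPM (62.9 to 97.8) in Tfap2b-positive and 62.9 CPM (57.9 to 68.1) in other ectoderm against 43.4 CPM (39.8 to 47.2) in oral ectoderm and 32.6 CPM (27.7 to 38.0) in endoderm. Fgfr1 lay in all 4 tissues between 61.8 and 64.3 CPM with overlapping intervals. The summed response was 205 CPM (197 to 213) in oral ectoderm and 93.0 CPM (87.0 to 99.4) in other ectoderm. The number of Fgfr2 UMIs per Fgfr1 UMI was 0.675 in oral ectoderm. It was higher in Tfap2b-positive and other ectoderm, at 1.28 and 1.01, where the sums were lower. Endoderm had a lower ratio than oral ectoderm, at 0.525, but also a lower sum, at 117 CPM. The same held for Twist1/Prrx1-positive cells, at 0.183 and 118 CPM.

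In the mesenchyme, 979 cells with a UMI of Hand2, a marker of the distal arch, were set beside 5617 without. The 2 groups also differed in Krt8 and Krt18 (100 and 123 against 21.9 and 28.8 CPM) and Col1a1 (36.2 against 2.79 CPM). Whether all cells with Hand2 were distal arch cells was not tested. Fgfr1 stood at 58.5 CPM with Hand2 and 48.4 without, and Fgfr3 at 3.89 CPM (2.97 to 5.01) and 0.982 CPM (0.772 to 1.23). All 6 response genes had lower values with Hand2. Dusp6 was at 33.9 CPM (31.0 to 36.9) against 48.9 CPM (47.3 to 50.5), and Spry4 at 7.98 CPM (6.63 to 9.52) against 14.9 CPM (14.1 to 15.8). In 417 cells with endothelial markers, 252 of them also Twist1/Prrx1-positive, Etv4 was at 13.0 CPM (10.4 to 16.1), Spry4 at 16.4 CPM (13.5 to 19.9) and Fgfr2 at 3.45 CPM (2.16 to 5.22). In 1551 cells with Sox10, a neural crest marker, 1521 of them also Twist1/Prrx1-positive, Spry4 was at 15.2 CPM (13.8 to 16.8) and Dusp6 at 42.7 CPM (40.2 to 45.3). The 65 haemoglobin-rich cells gave the low reference for this library, though 25 of them were also Twist1/Prrx1-positive. They had 9.08 CPM of Fgfr1, 5.05 of Dusp6, 5.05 of Spry1 and 1.01 to 2.02 CPM of Fgfr2, Spry4, Spry2, Etv4 and Etv5. No Fgfr3 UMI was found in them, which allows up to 3.03 CPM.

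**Figure D5:**
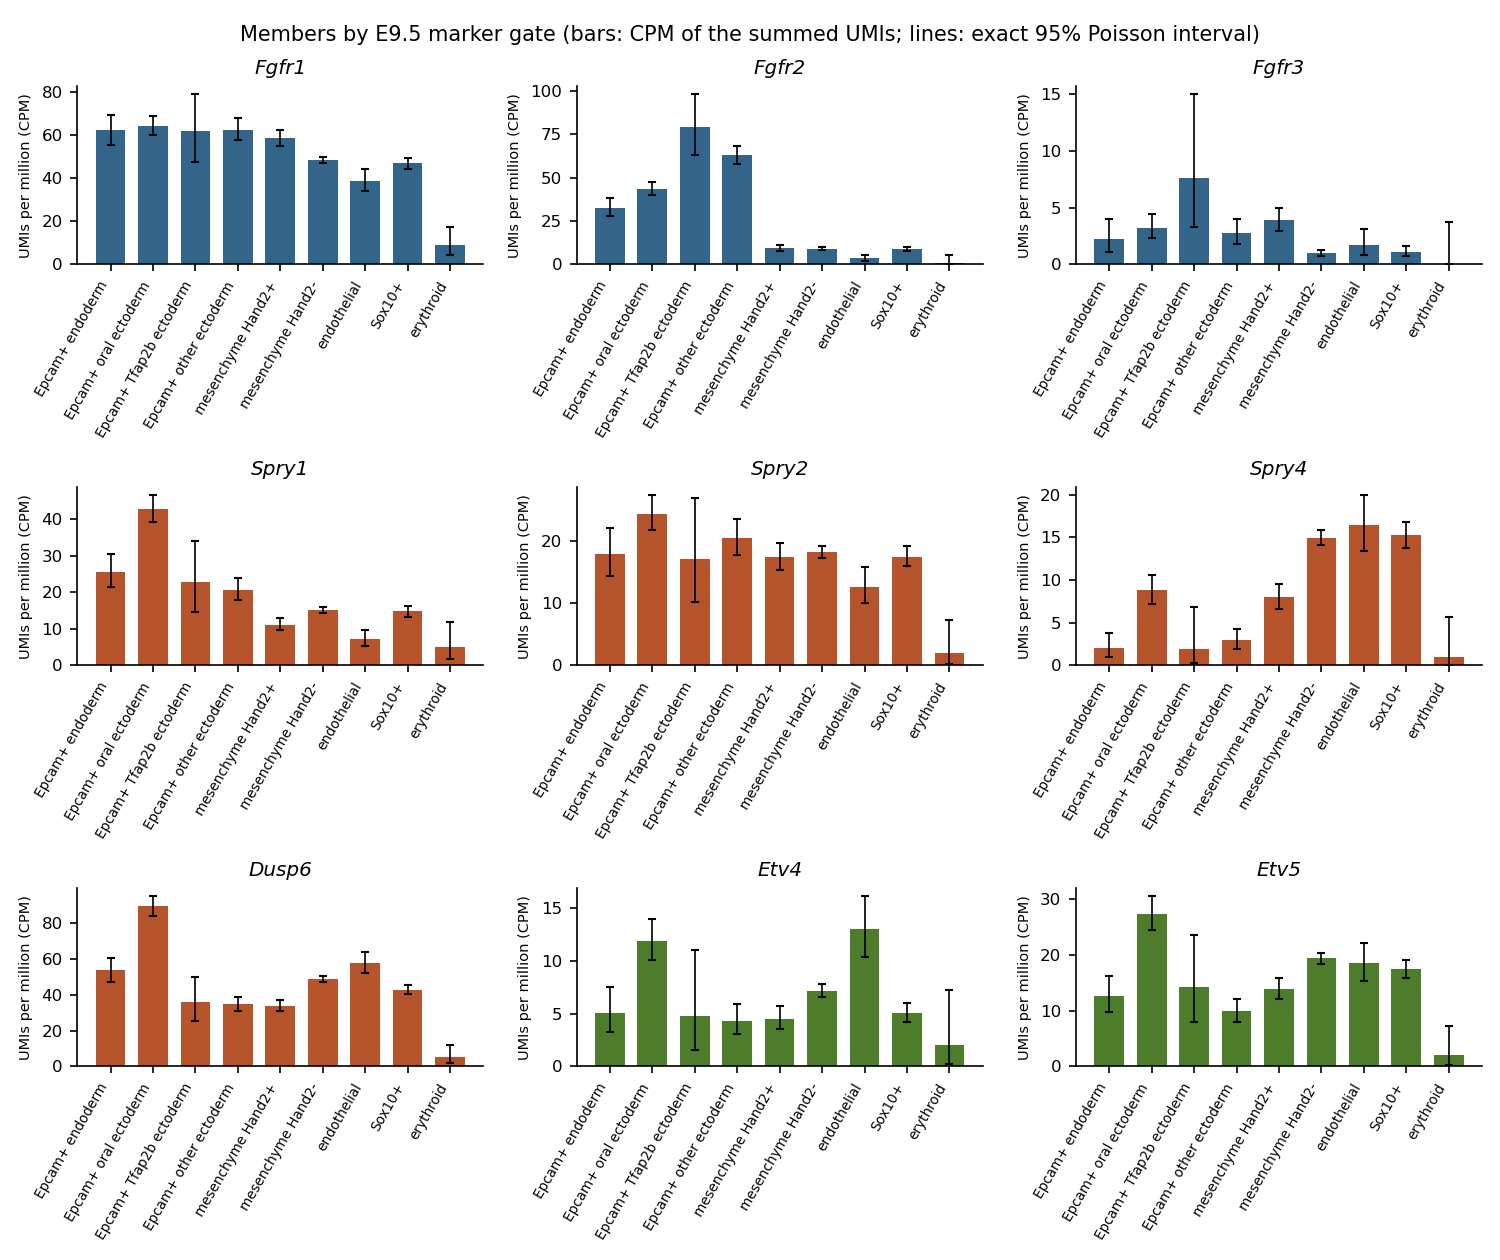
CPM of each member (vertical axis) in 9 marker groups of the E9.5 library (horizontal axis), with receptors in blue, feedback inhibitors in orange and ETS factors in green; lines are exact 95% Poisson intervals. Fgfr2 has bars of 32.6 CPM and above in the 4 Epcam-positive groups and of at most 9.47 CPM elsewhere, and Dusp6 peaks in oral ectoderm, at 89.3 CPM.

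The epithelium of the 2 libraries is given side by side, since stage, sorting, library and gene annotation cannot be told apart. Fgfr2 stood at 49.5 CPM (46.9 to 52.1) in Epcam-positive cells at E9.5 and at 291 CPM (287 to 294) in sorted epithelium at E12.0, and Fgfr1 at 63.2 CPM (60.3 to 66.2) and 68.2 CPM (66.4 to 70.1). There were 0.783 (0.729 to 0.841) Fgfr2 UMIs per Fgfr1 UMI at E9.5 and 4.26 (4.13 to 4.39) at E12.0. Fgfr3 was at 3.06 CPM (2.45 to 3.79) and 16.5 CPM (15.6 to 17.4), Dusp6 at 62.4 CPM (59.5 to 65.4) and 40.0 CPM (38.6 to 41.4), and Etv5 at 18.3 CPM (16.7 to 20.0) and 35.6 CPM (34.3 to 36.9). Spry1 was at 31.4 and 35.6 CPM, Spry2 at 21.7 and 34.8, Spry4 at 5.37 and 7.30, and Etv4 at 7.85 and 16.8 CPM. At E9.5 Fgfr2 was lower in oral ectoderm, where the response genes were highest, than in the other ectodermal groups. Endoderm had still less Fgfr2, with a summed response of 117 against 205 CPM in oral ectoderm. At E12.0 Fgfr2 had its lowest value in the salivary gate, at 140.1 CPM. The dental, initiation knot and periderm/suprabasal gates were close to that value, with summed responses of 118 to 232 CPM against 724 CPM in the salivary gate.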

How the data were processed

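Counts of UMIs per gene and cell were deposited by the authors as 1 filtered 10x Genomics 3′ matrix per stage, not normalized. Alignment was to mm10 (GRCm38), with Cell Ranger 2.0.0 per the submitters' processing notes, 3.1.0 in the header of the E12.0 matrix and 6.1.2 in that of the E9.5 matrix. The gene annotations differed between the libraries. Only rows of the authors' matrices were used.

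Cells with 200 to 5500 genes and at most 10% mitochondrial UMIs were kept. Marker gates were set on UMIs as described, UMIs were summed per gate and divided by the gate's total to give CPM, and exact Poisson and Clopper-Pearson intervals at 95% were computed. An interval for a ratio of UMI sums or CPM treated both sums as Poisson counts, and an interval for joint detection took the expected number as fixed. For thinned shares, each E12.0 cell was cut down at random to 4100 UMIs and each E9.5 cell to 3100 (its 10th percentile of depth, rounded down; seed 1), which left out 1024 and 1233 shallower cells. Doublets were called with Scrublet in scanpy 1.11.5 and kept, and leaving them out was an alternative. The background of each comparison included the genes that set its groups. Python 3.11.15, numpy 2.4.6, scipy 1.17.1, pandas 2.3.3 and matplotlib 3.10.9 were used, and the size criteria were tested on simulated data.

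All 9 members were named, with pathway genes named only where they met the criteria, and the 3 genes closest in pattern to each member whose own CPM, with 5 added, ranged at least 3-fold over the gates, among genes with a UMI in at least 5% of kept cells. Some gene names and values that these rules give are not reported here. The members, gates and lists were chosen with earlier results of these data known. Alternatives changed the filters, doublets, cell weights, thinning, added CPM, fold, detection limit, gates, cell cycle genes and Xist or Y-linked UMIs. Alternatives for the E9.5 Fgf8 comparison, those within single tissues or without endoderm included, were chosen after seeing the data. Without replicates no test between conditions was made.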

Additional observations from a re-analysis of the deposited data

Results flagged for a closer look

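For 5 response genes the log2 ratio of cells with against cells without Fgf8 UMIs had opposite signs in the 2 libraries, positive in Epcam-positive cells at E9.5 and negative in sorted epithelium at E12.0. The E9.5 ratio minus the E12.0 ratio was 1.10 for Spry1 (0.92 and -0.18), 1.96 for Spry4 (1.55 and -0.42) and 1.46 for Dusp6 (1.15 and -0.30). It was 1.95 for Etv4 (1.32 and -0.62) and 2.05 for Etv5 (1.42 and -0.63). These differences were not tested, since each stage was 1 library, and stage, sorting and library cannot be told apart. Within oral ectoderm at E9.5 the ratio of Etv5 was 0.87 (0.46 to 1.31), and within dental lateral cells at E12.0 it was -0.44 (-1.03 to 0.13).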

How the results depend on the processing

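Of 143 recomputed counts of members past the size criteria, 111 stayed within 1.5 times the reported count and 32 did not. Of the recomputed values of single genes 1115 moved by less than their counting interval and 168 by more. A further 4 values, of members that met the criteria in the main setting, changed sign. The reported counts were 6 (anterior), 2 (dental), 4 (initiation knot), 7 (posterior), 8 (salivary), 7 (tongue), 6 (periderm/suprabasal), 1 (Fgf8 at E12.0), 4 (E9.5 epithelium against mesenchyme) and 5 (Fgf8 at E9.5). With a fold of 2 they became 3 (anterior), 0 (dental), 0 (initiation knot), 2 (posterior), 1 (tongue), 1 (periderm/suprabasal), 0 (Fgf8 at E12.0), 1 (E9.5 tissues) and 2 (Fgf8 at E9.5). With a UMI required in 25% of cells they became 2 (anterior), 1 (dental), 3 (periderm/suprabasal) and 0 (Fgf8 at E12.0). In thinned cells they were 1 (dental), 3 (periderm/suprabasal), 1 (E9.5 tissues) and 2 (Fgf8 at E9.5, also where Fgf8 was counted in thinned cells). In Xist-positive cells the dental count was 4. With at most 5% mitochondrial UMIs the posterior count was 4 and that for Fgf8 at E12.0 was 2. Without Top2a or Mki67 UMIs the counts were 3 (periderm/suprabasal), 0 (Fgf8 at E12.0) and 2 (E9.5 tissues). The Fgf8 count at E12.0 was 2 without called doublets, with equal cell weights, in Y-positive cells, with at least 2 Fgf8 UMIs and within other anterior cells (both higher there), 0 within dental lateral and 5 within posterior cells, and the one at E9.5 was 3 within the other ectoderm. These 4 changes of sign, with 5 CPM added, were Fgfr1 in the initiation knot in Y-positive cells (-0.027), Etv4 in the tongue gate in thinned cells (-0.037), Etv5 with Fgf8 within other anterior cells (0.27) and Dusp6 between E9.5 tissues without Top2a or Mki67 UMIs (-0.44). Members that did not meet the criteria in the main setting also changed sign and are not among the 4. With Fgf8 at E12.0, the pooled ratios of Fgfr1 and Fgfr2 were below 1. Without added CPM, the log2 ratio of Fgfr1 was 0.54 within other anterior cells and that of Fgfr2 was 0.25 within dental lateral cells. The cause of these changes was not tested. The share of all genes past the criteria is given for the main setting only. The counts under other settings stand without it.

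No paired analysis was possible because each stage was 1 library, and for the same reason no replicate could be left out. Under 50 cells remained, and no value was computed, for the tongue gate with at most 5% mitochondrial UMIs, in Xist-positive cells, without Top2a or Mki67 UMIs and with 1 more UMI in the gate, for Fgf8 within the ventral, anterior dorsal, initiation knot, salivary, tongue and periderm/suprabasal gates at E12.0, and for Fgf8 at E9.5 without Top2a or Mki67 UMIs. The depth limited Spry4, Etv4 and Fgfr3 most, which had a UMI in few cells of most gates.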
